A study of Mus musculus with 4 samples.

Results

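Blood T cells of 1 mouse given anti-OX40/CpG together with PD-L1 blockade (PDOX) were compared with those of 1 mouse given anti-OX40/CpG alone, which asks what the added blockade of PD-L1 goes with. A droplet was taken as a T cell when it held 200 to 2900 detected genes and at least 1 unique molecular identifier (UMI, 1 captured transcript) of Cd3d, Cd3e or Cd3g, which encode chains of the CD3 complex. By this rule 1340 PDOX and 1481 anti-OX40/CpG T cells were found, together 2821 of the 4835 T cells and 5434 deposited cells of the series. The 2 other libraries, of an untreated and an anti-PD-L1-treated mouse with 697 and 1317 T cells, serve as background. All mice were C57BL/6 females that carried subcutaneous MC-38 tumors, a colon carcinoma line. Agonistic anti-OX40 antibody and CpG were injected on day 7 after tumor challenge in the anti-OX40/CpG and PDOX mice, and blocking anti-PD-L1 antibody on days 10, 13 and 17 in the anti-PD-L1 and PDOX mice. They entered the experiments as young adults. Blood was taken on day 18 and enriched for CD3+ T cells. The sample label names OX40 only, and the CpG comes from the methods of the study. The design text of the deposited record names 4 blood samples from 4 mice. With 1 mouse and 1 library a treatment, mouse, library and treatment cannot be told apart. No test between the treatments was possible, and every interval below is a 95% interval for counting error only.

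OX40 is a costimulatory receptor that T cells put on their surface after antigen contact, and CpG is a ligand of Toll-like receptor 9. PD-L1 on tumor and myeloid cells engages PD-1 on activated T cells and dampens signals from the T cell receptor. Naive T cells circulate through lymph nodes guided by receptors such as CCR7 and S1PR1, whereas effector cells lose these, gain receptors for inflamed tissue such as CXCR3, and load granules with granzymes. T cells under prolonged antigen contact can instead take up a program with TOX and several inhibitory receptors.

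The T cell label held in the data. Lck, a kinase of T cell receptor signalling that the rule did not use, was found in 77.1% of anti-OX40/CpG and 78.8% of PDOX T cells, against 40.5% and 21.7% of the droplets without a Cd3 UMI. The median T cell held 1665 and 1604 counted UMIs in these libraries. Mitochondrial, ribosomal protein and hemoglobin genes were not counted, and they took 44.3% of all UMIs in anti-OX40/CpG T cells and 36.2% in PDOX T cells. Markers of other blood cells differed between the libraries. In the T cells the summed level of the 8 NK cell markers was 7.16 and 6.07 UMIs per 10000 counted UMIs in the anti-OX40/CpG and PDOX libraries, that of the 8 B cell markers 2.51 and 5.06, that of the 8 monocyte markers 6.66 and 13.7, that of the 6 neutrophil markers 0.741 and 6.16, and that of the 6 platelet markers 0.144 and 0.970. The NK cell sum is not a count of NK cells. In anti-OX40/CpG CD4 T cells it was 3.51, though Ncr1, Klrb1c, Tyrobp, Klra8 and Klri2 were at 0 there. The platelet chemokine Ppbp counted 59 UMIs in 41 PDOX and 1 in anti-OX40/CpG cells of the effector gate described below. Only 1 basophil UMI was found in the anti-OX40/CpG T cells, and Mcpt8, Prss34, Fcer1a and Ms4a2 were at 0 there, against 190 basophil UMIs in PDOX. The part of these cells in the results below was tested only where a value without them is given. The 2 libraries shared 6 cell barcodes.

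CD4 T cells took a larger and CD8 T cells a smaller share of the PDOX T cells. Cells with a UMI of Cd8a or Cd8b1 and none of Cd4 made up 673 of the 1481 anti-OX40/CpG T cells (45.4%, 42.9 to 48.0) and 456 of the 1340 PDOX T cells (34.0%, 31.5 to 36.6). Cells with a UMI of Cd4 and none of the Cd8 genes were 264 (17.8%, 15.9 to 19.9) and 301 (22.5%, 20.3 to 24.8). Neither transcript was caught in 481 and 509 cells, and both were found in 63 and 74 cells. In the untreated and anti-PD-L1 libraries, CD8 T cells were 46.5% and 49.6% and CD4 T cells 14.6% and 15%. After every cell was thinned to 750 UMIs, which left 1320 and 1185 cells, CD8 T cells were 41.9% and 32.9% and CD4 T cells 11.1% and 14.4%, so the order stayed.

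Effector-type cells outnumbered naive-type cells in the PDOX blood and were a minority in the anti-OX40/CpG blood. A cell was placed in an effector gate when its UMIs of S100a4, S100a6, Lgals1, Anxa2 and Ahnak, genes of effector and memory T cells, outnumbered those of a set of naive T cell genes that included Ccr7, Lef1, Satb1, Igfbp4 and Dapl1, and in a naive gate when they were fewer. The effector gate held 397 of 1481 anti-OX40/CpG T cells (26.8%, 24.6 to 29.1) and 691 of 1340 PDOX T cells (51.6%, 48.9 to 54.3), beside 11% of untreated and 14.0% of anti-PD-L1 T cells. The difference was present in both lineages. Of the CD8 T cells, 163 of 673 (24.2%, 21 to 27.6) and 236 of 456 (51.8%, 47.1 to 56.4) were in the effector gate. Of the CD4 T cells, 88 of 264 (33.3%, 27.7 to 39.4) and 185 of 301 (61.5%, 55.7 to 67.0) were. Thinned to 750 UMIs, the shares over all T cells were 27.4% and 53.3%. The gate is a limit on a continuous score, and 170 anti-OX40/CpG and 150 PDOX T cells lay within 1 UMI of it.

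**Figure D1:**
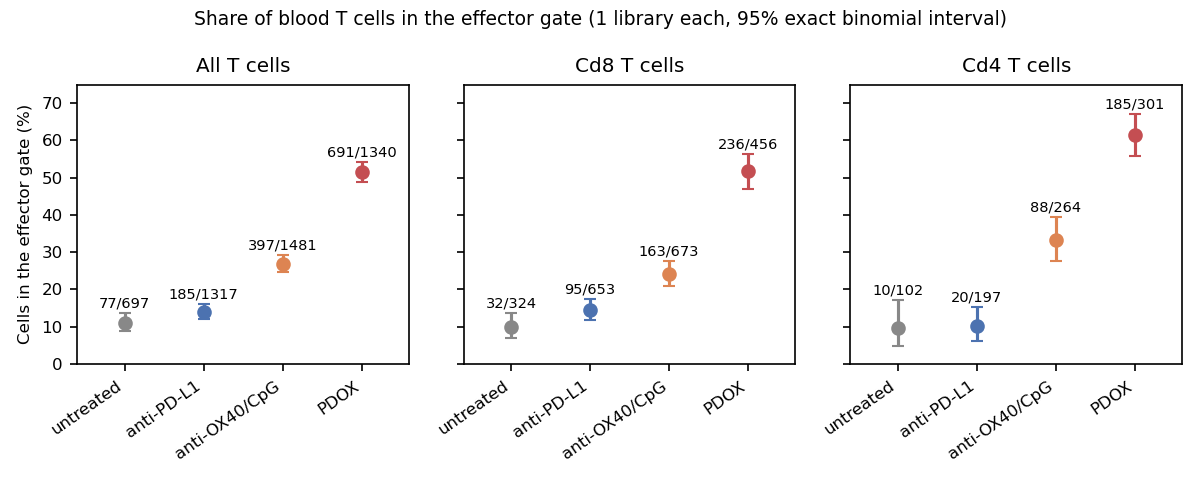
Share of T cells in the effector gate (percent, vertical axis) in each of the 4 libraries, for all T cells, CD8 T cells and CD4 T cells, with exact binomial 95% intervals and the number of cells. The PDOX library is highest in each panel, at 51.6% of all T cells against 26.8% with anti-OX40/CpG alone.

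Across genes, the difference between the libraries was carried by few genes. Levels are UMIs of a gene per 10000 counted UMIs, summed over the cells, and a gene is called higher or lower when its PDOX level is at least 2-fold above or below the anti-OX40/CpG level and it has at least 50 UMIs over both libraries. In such sums, fewer cells of a type and less RNA per cell cannot be told apart. Of 7633 genes in all T cells, 160 (2.10%) were higher and 117 (1.53%) lower in PDOX. In CD8 T cells 85 (1.64%) were higher and 102 (1.97%) lower of 5183, and in CD4 T cells 52 (1.58%) were higher and 44 (1.33%) lower of 3299. The median gene had a log2 ratio of 0.03 in all T cells. Of the genes called in either direction, 57.8% in all T cells, 45.5% in CD8 and 54.2% in CD4 T cells were higher in PDOX. When ribosomal, mitochondrial and hemoglobin UMIs were kept in the denominator, these parts were 76.2%, 74.9% and 78.4%, and the median log2 ratio of all genes moved from 0.03 to 0.23. H1f0 at a ratio of 2.01 was just inside the limit and Ifit1 and Gas7 at 2.0 just outside, and on the lower side Bcl9 at 0.499 was inside and Cd244 at 0.50 outside.

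**Figure D2:**
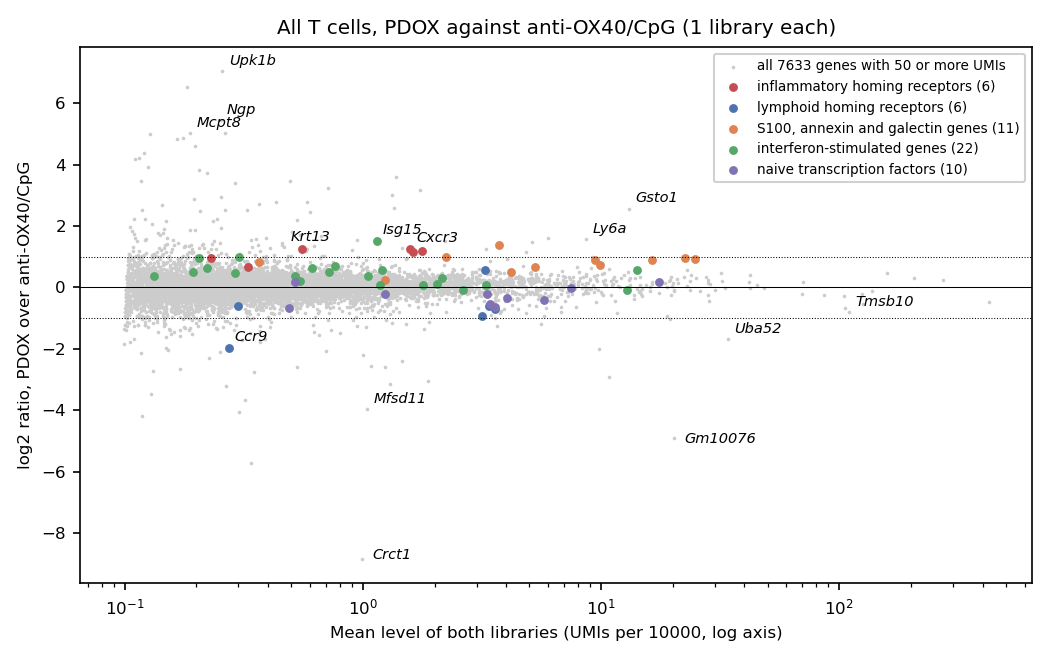
Log2 ratio of PDOX over anti-OX40/CpG (vertical axis) against the mean level of each gene in UMIs per 10000 (horizontal, log scale) in all T cells, with the members of named gene lists in color. Most genes lie near 0, the inflammatory homing receptors lie above it and the low outlier at a high level is Gm10076.

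Receptors for entry into inflamed tissue had the largest median ratio of the 24 gene lists in all T cells. Of 9 listed, 6 had at least 50 UMIs, and all 6 were above a ratio of 1 and 4 passed 2-fold, with a median log2 ratio of 1.17. Cxcr3, the receptor of the interferon-induced chemokines CXCL9 and CXCL10, stood at 0.432, 0.447, 0.928 and 2.22 UMIs per 10000 in the untreated, anti-PD-L1-only, anti-OX40/CpG-only and PDOX libraries. The PDOX level was 2.40-fold (2.05 to 2.81) that with anti-OX40/CpG alone, and 302 against 162 T cells held a Cxcr3 UMI. None of 35 PDOX and 7 anti-OX40/CpG B cells without a Cd3 UMI, with medians of 1154 and 1305 UMIs, held one. Cxcr6, a receptor of tissue-resident and effector T cells, stood at 0.492, 0.658, 1.08 and 2.46 in the same order, a ratio of 2.28 (1.97 to 2.64). Ccr2, which guides cells to the chemokine CCL2, stood at 0.855, 0.710, 1.01 and 2.25, a ratio of 2.23 (1.92 to 2.60). Cx3cr1, a receptor of blood effector cells, stood at 0.156, 0.323, 0.326 and 0.781, a ratio of 2.40 (1.84 to 3.14). For all 4 receptors the PDOX library was the highest of the 4. In CD8 T cells the ratios of Cxcr3 and Ccr2 were 3.09 and 2.94, and in CD4 T cells that of Cxcr6 was 2.77.

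The larger effector gate did not account for all of the homing receptor difference in the arithmetic. When the Cxcr3 difference of 1.30 UMIs per 10000 was split into the part from the shares of the gates and the part from the levels inside them, 50.1% came with the shares. Within the CD8 effector gate Cxcr3 was still 2.17-fold (1.59 to 3.0) higher in PDOX, and 98 of 236 PDOX (41.5%) against 43 of 163 anti-OX40/CpG cells (26.4%) held a UMI of it. Ccr2 was 1.71-fold (1.27 to 2.32) and Cxcr6 1.32-fold (1.02 to 1.73) higher there. Within the CD4 effector gate the ratio of Cxcr3 was 1.17 (0.875 to 1.58) and its interval held 1, the ratio of Ccr2 was 1.09, and Cxcr6 was 1.63-fold (1.23 to 2.19) higher. Whether the 2 lineages differ in this was not tested.

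Receptors of lymph node recirculation lay on the other side. Of 6 tested, 5 had a lower level in PDOX, with a median log2 ratio of -0.67. S1pr1, the sphingosine-1-phosphate receptor that lets T cells leave lymph nodes, stood at 3.57, 3.22, 4.15 and 2.17 UMIs per 10000 in the untreated, anti-PD-L1-only, anti-OX40/CpG-only and PDOX libraries, a ratio of 0.522 (0.469 to 0.581). It was lower within the naive gate too, with 253 PDOX and 808 anti-OX40/CpG UMIs and a ratio of 0.588 (0.509 to 0.678). Ccr9, a gut homing receptor, stood at 0.648, 0.511, 0.435 and 0.112, a ratio of 0.257 (0.161 to 0.396), and at 0.372 (0.221 to 0.599) within the naive gate. S1pr4, another receptor of this family, was the exception at 1.49 (1.34 to 1.64).

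Of 12 tested transcription factors of effector T cells, 10 were above and 2 below a ratio of 1 and 3 passed 2-fold, with a median log2 ratio of 0.78. Id2, an inhibitor of E proteins that effector T cells need, stood at 2.68, 3.42, 6.12 and 12.1 UMIs per 10000 in the untreated, anti-PD-L1-only, anti-OX40/CpG-only and PDOX libraries, a ratio of 1.98 (1.86 to 2.11), and 64.0% of that difference came with the gate shares. Zeb2, which drives terminal effector differentiation, stood at 0.553, 0.575, 0.540 and 1.25 in the same order, a ratio of 2.32 (1.89 to 2.86). In CD4 T cells it stood at 0.401, 0.153, 0.0634 and 1.05. Monocyte markers summed to 38.3, 20.9, 6.66 and 13.7 UMIs per 10000 in all T cells of these libraries. Their part in the Zeb2 levels was not tested. Bhlhe40, a factor of cytokine-producing and tissue-resident T cells, stood at 0.0432, 0.164, 0.342 and 0.820, a ratio of 2.40 (1.85 to 3.13). The factors below 1 included Runx3 at 0.820 (0.714 to 0.94), which acts in CD8 T cells. Within the CD8 effector gate this list had a median log2 ratio of -0.04, with Id2 at 1.18, Zeb2 at 1.46 and Bhlhe40 at 0.976. Within the CD4 effector gate 8 of 9 members were above 1 and the median was 0.45.

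Granule genes differed between the libraries in the number of cells more than in the level per effector cell in CD8 T cells. In all T cells 12 of 15 granule genes were above 1, none passed 2-fold and the median log2 ratio was 0.37. Gzma, which encodes granzyme A, stood at 0.717, 3.67, 7.19 and 11 UMIs per 10000, a ratio of 1.54 that was 3.17 without the droplets that held a UMI of 10 genes of other lineages. In CD8 T cells Gzma was 2.26-fold (2.08 to 2.45) and Gzmb, which encodes granzyme B, 2.08-fold (1.77 to 2.44) higher in PDOX. Within the CD8 effector gate these ratios were 1.22 (1.12 to 1.32) and 1.07 (0.909 to 1.26), and Gzmk was at 0.915 (0.735 to 1.14). The 15 granule genes there summed to 129.0 UMIs per 10000 with anti-OX40/CpG and 129.1 in PDOX. Among killing-related genes, Cst7, which encodes the cathepsin inhibitor cystatin F, was lower in that gate at 0.515 (0.412 to 0.642). NK cell markers in that gate summed to 5.71 UMIs per 10000 with anti-OX40/CpG and 2.46 in PDOX, and B cell markers to 11.2 and 4.77. Their part in the granule gene ratios of the gate was not tested.

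A set of CD4 T cells with granzyme A was found in PDOX blood. Within the CD4 T cells 382 PDOX and 10 anti-OX40/CpG UMIs of Gzma were counted, a ratio of 32.7 (17.6 to 68.7), and within their effector gate 379 and 3. At 2 or more UMIs, a limit set after the values were seen, 22 of 301 PDOX CD4 T cells (7.31%) were positive, against 0 of 264 with anti-OX40/CpG, 2 of 197 with anti-PD-L1 and 0 of 102 untreated cells. The 10 anti-OX40/CpG cells with Gzma held 1 UMI each, while the PDOX cells reached 54. No Gzma UMI was found in 35 PDOX B cells without Cd3, and 1 of 7 such anti-OX40/CpG cells held one. Thinned to 750 UMIs, 8 of 171 and 0 of 146 CD4 T cells had 2 or more. So the difference rested on a small set of cells, of which 10 held 298 of the 382 UMIs.

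Other genes of killer cells were found in many of these 22 cells. All 22 held UMIs of Ccl5, a chemokine of effector T cells, and of Nkg7, a granule membrane protein. Zeb2 was found in 13 of them, Klrg1, an inhibitory receptor of terminal effector cells, in 11, Cx3cr1 in 11, S1pr5, an exit receptor of killer cells, in 10, and Itgb1 in 16. Of all 301 PDOX CD4 T cells, Zeb2 was found in 26, Klrg1 in 22 and Cx3cr1 in 29. Gzmb was found in 6 of the 22 cells, Tbx21, an effector factor, in 6 and Eomes, a related factor, in 1. Cxcr3 was found in 2 and Cxcr6 in 6 of the 22, against 85 and 91 of the 301 cells. None held a UMI of Foxp3, the factor of regulatory T cells, nor of Tyrobp, Fcer1g or Ncr1, which mark NK cells.

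Other genes of killer cells were higher in the sums over all PDOX CD4 T cells. In CD4 T cells 3 of 9 tested granule genes and 3 of 4 NK-type receptors passed 2-fold upward in PDOX. Within the CD4 effector gate 1 of 8 and 0 of 3 did, with median log2 ratios of 0.26 and 0.86. Ccl5 stood at 5.85, 5.67, 26.8 and 108 UMIs per 10000 in the untreated, anti-PD-L1-only, anti-OX40/CpG-only and PDOX CD4 T cells, a ratio of 4.01. Nkg7 stood at 0.860, 1.69, 7.55 and 24.0, a ratio of 3.18 (2.83 to 3.58), and 149 of 185 PDOX CD4 effector-gate cells (80.5%) against 49 of 88 (55.7%) held it, beside 14.3% of the B cells of each library. The 22 cells with Gzma held 2256 of the 5949 PDOX UMIs of Ccl5 and 244 of the 1326 of Nkg7. Ly6c2, a surface protein of effector and memory cells, counted 169 and 15 UMIs, a ratio of 9.64 (5.68 to 17.6). The untreated CD4 T cells stood at 3.44 beside the PDOX ones at 3.06. Monocyte markers summed to 48.1 UMIs per 10000 in the untreated and 4.07 in the PDOX CD4 T cells. Their part in the Ly6c2 levels was not tested. Zeb2 counted 58 and 3 UMIs, a ratio of 16.5 (5.39 to 82.6), and the 22 cells with Gzma held 35 of the 58. Within the CD4 effector gate 25 of 1993 genes (1.25%) were higher and 27 (1.35%) lower. Of the higher genes with UMIs in both libraries, Gzma at 62.7 (21.3 to 306) and Zeb2 at 28.3 led. The basophil genes Mcpt8 and Prss34 counted 78 and 72 UMIs in PDOX, with 78 and 71 in 1 cell, and 0 with anti-OX40/CpG. Foxp3 counted 27 and 9 UMIs in CD4 T cells, a ratio of 2.57 (1.17 to 6.2). Tnfrsf4, which encodes OX40 itself, stood at 0.571 with anti-OX40/CpG and 1.12 in PDOX CD4 T cells, a ratio of 1.96 (1.23 to 3.21).

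**Figure D3:**
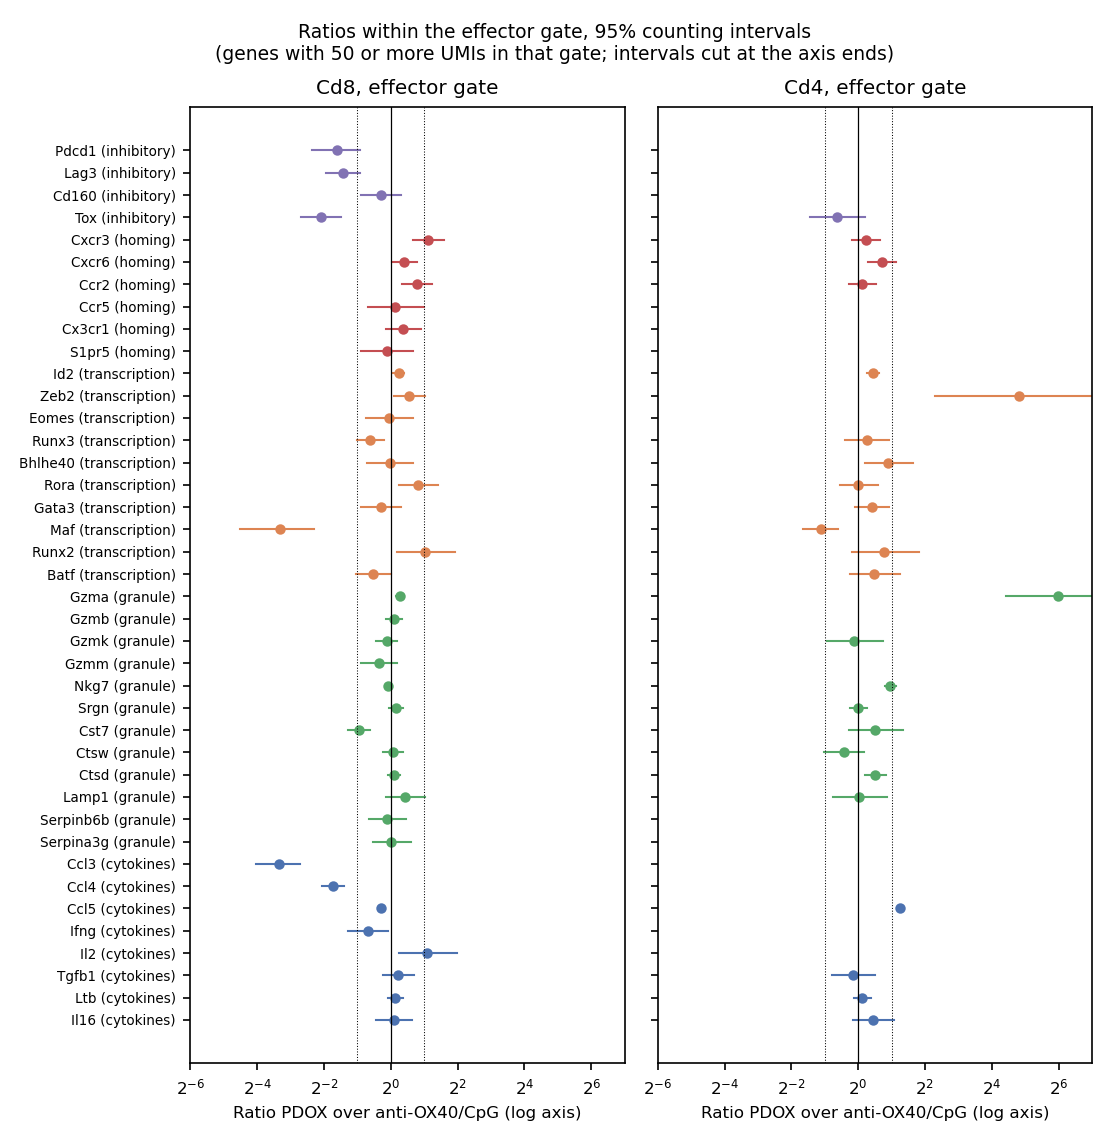
Ratio of PDOX over anti-OX40/CpG (log scale, with exact 95% intervals) of inhibitory, homing, transcription factor, granule and cytokine genes within the effector gate of CD8 and of CD4 T cells. Tox, Lag3, Pdcd1, Maf, Ccl3 and Ccl4 lie below 1 in CD8 cells, Cxcr3 and Ccr2 above 1, and Gzma lies at 62.7 in CD4 cells and at 1.22 in CD8 cells.

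Inside the CD8 effector gate, genes of the TOX program were lower in PDOX. Here 57 of 2724 genes (2.09%) were higher and 44 (1.62%) lower. For 18 of the 57, 1 cell held 50% or more of the PDOX UMIs, and 33 genes were higher without the top cell of each gene. With ribosomal, mitochondrial and hemoglobin UMIs in the denominator the higher part of the calls was 68.2% in place of 56.4%. Of 12 listed genes of inhibitory receptors and Tox 4 had enough UMIs, and all 4 were below 1 and 3 passed 2-fold, with a median log2 ratio of -1.52. Tox, a factor of chronically stimulated T cells, stood at 0.303, 0.659, 2.68 and 0.634 UMIs per 10000 in the untreated, anti-PD-L1-only, anti-OX40/CpG-only and PDOX libraries, a ratio of 0.237 (0.154 to 0.356). Lag3, an inhibitory receptor for MHC class II, stood at 0.151, 0.461, 2.65 and 0.990, a ratio of 0.373 (0.260 to 0.530). Pdcd1, which encodes PD-1, counted 25 and 56 UMIs in PDOX and anti-OX40/CpG, a ratio of 0.327 (0.195 to 0.532). The anti-OX40/CpG library was the highest of the 4 for each, while Cd160, the fourth member, was at 0.811 (0.534 to 1.24). Maf, a transcription factor that acts upstream of several inhibitory receptors, counted 9 and 66 UMIs, a ratio of 0.0998 (0.0437 to 0.201). Ccl3 and Ccl4, chemokines of activated T cells, had ratios of 0.0978 (0.0604 to 0.152) and 0.303 (0.242 to 0.379).

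These genes were found together in the same anti-OX40/CpG cells. With Tox, Maf, Lag3, Pdcd1 and Ccl3, chosen after their ratios were seen, 34 of 163 anti-OX40/CpG CD8 effector-gate cells (20.9%, 14.9 to 27.9) held UMIs of 3 or more of the 5, against 3 of 236 PDOX cells (1.27%, 0.263 to 3.67), 2 of 95 anti-PD-L1 and 1 of 32 untreated cells. At 4 or more they were 25 (15.3%) and 0. At 1 or more the shares were 50.9% and 33.1%, so cells with a single one of these genes were common in both libraries. The 34 cells held a median of 2421 UMIs and the 163 cells of the gate 1999. Of the B cells without Cd3, none of 35 in PDOX held a UMI of Tox, Lag3, Pdcd1 or Ccl3 and 1 a UMI of Maf, and 1 of 7 with anti-OX40/CpG held a UMI of Lag3. Thinned to 750 UMIs, 16 of 140 (11.4%) and 0 of 205 cells remained. Among CD4 T cells, 7 in each library held 3 or more.

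The 34 anti-OX40/CpG cells stood apart from the other 129 cells of their gate in genes not used to pick them. Coch, which encodes cochlin, counted 31 UMIs in the 34 cells and 4 in the 129, and Tnfrsf9, the costimulatory receptor 4-1BB, 23 and 2. Havcr2, the inhibitory receptor TIM-3, counted 13 and 5. Gzmb, Gzmk, Nkg7 and Ccl5 were 2.39-fold, 3.51-fold, 2.47-fold and 2.59-fold higher in the 34 cells. Against this, Gzma was lower at 0.146, Ly6c2 at 0.0982, and Klrk1, the activating receptor NKG2D, counted 1 UMI against 211. Markers of other cells were also lower in the 34 cells, with Tyrobp, an NK and myeloid adaptor, at 0 against 41, and Cd74 and H2-Aa, genes of antigen-presenting cells, at 1 against 241 and 0 against 66. Their part in these differences was not tested. Klrc1, an inhibitory NK-type receptor, had 0 against 130, Il18r1 0 against 62 and Zeb2 1 against 62. Tcf7, a factor of naive and memory cells, had 1 against 54, and Mki67, a marker of division, 1 against 13. Cxcr3 was at 1.05 between them.

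Leaving out the cells with 3 or more of the 5 genes changed some of the CD8 differences. Among the remaining effector-gate cells Lag3 was at 1.80 (0.971 to 3.55), Pdcd1 at 2.47 (0.912 to 8.34), Tox at 0.445 (0.246 to 0.796), Maf at 0.266 (0.106 to 0.616) and Ccl3 at 0.333 (0.187 to 0.580). The cells were left out by these 5 genes, so the choice itself moves these 5 ratios and nothing was read from them. Of genes not used for the choice, Ccl4 went from 0.303 to 0.752 (0.563 to 1.01) and Cst7 from 0.515 to 0.860 (0.654 to 1.13), and both intervals then held 1. With anti-OX40/CpG, Ccl4 and Cst7 were 6.88-fold and 3.73-fold higher in the left-out cells than in the others. Leaving those cells out therefore raises both ratios by arithmetic. Gzmb was then at 1.43, Gzmk at 1.48 and Ccl5 at 1.11. Cxcr3 stayed at 2.15.

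**Figure D4:**
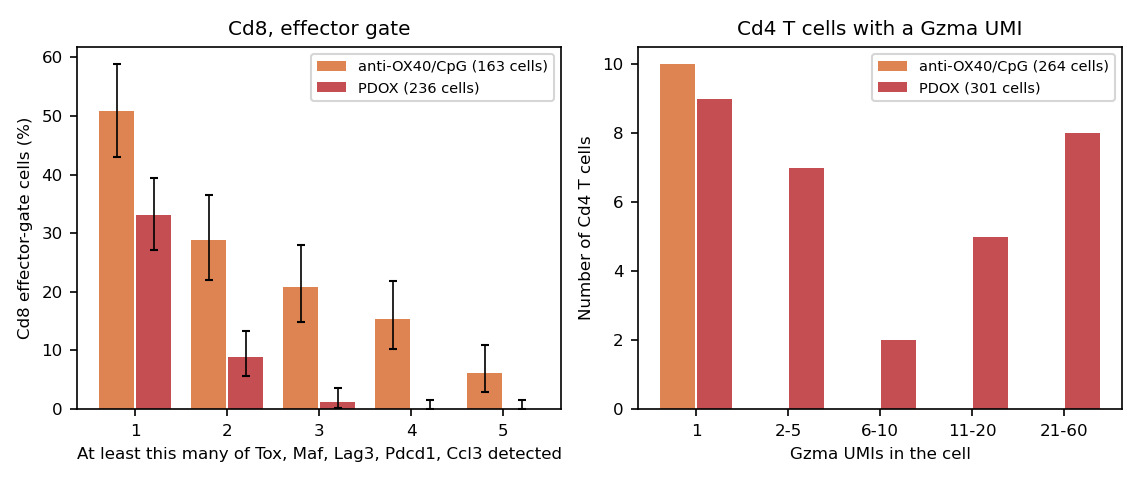
Left, percent of CD8 effector-gate cells (vertical axis) with UMIs of at least 1 to 5 of Tox, Maf, Lag3, Pdcd1 and Ccl3 (horizontal) in each library. Right, number of CD4 T cells by their Gzma UMIs. The anti-OX40/CpG library keeps 20.9% of cells at 3 genes while PDOX keeps 1.27%, and CD4 cells with 2 or more Gzma UMIs number 22 in PDOX and 0 with anti-OX40/CpG.

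Ly6a, which encodes the interferon-induced surface protein Sca-1, was the list member with one of the highest ratios in all T cells. It stood at 4.79, 10.8, 4.36 and 12.9 UMIs per 10000 in the untreated, anti-PD-L1-only, anti-OX40/CpG-only and PDOX libraries, so both libraries with PD-L1 blockade were above both without. The ratio of PDOX over anti-OX40/CpG was 2.97 (2.77 to 3.18) in all T cells, 3.96 in CD8 and 1.67 in CD4 T cells, where the untreated level of 12.4 lay beside the PDOX level of 11.9. The difference was present in CD8 cells of the naive gate, where 71 of 200 PDOX (35.5%) and 98 of 483 anti-OX40/CpG cells (20.3%) held a UMI and the ratio was 2.07 (1.60 to 2.68). B cells without Cd3, which can express Ly6a, held it in 25 of 35 PDOX and 3 of 7 anti-OX40/CpG droplets. Of the Ly6 and Ifitm families 4 of 9 tested members passed 2-fold upward, with a median log2 ratio of 0.92. Ifitm1, an interferon-induced membrane protein, had 1759 and 692 UMIs and a ratio of 2.81, in only 107 and 61 cells, and it was 4.71 without the 5% of cells with most UMIs.

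Genes induced by interferon were slightly higher in PDOX over all T cells and in the naive gate, and hardly so in CD4 T cells. Of 25 listed, 22 were tested in all T cells, of which 20 were above a ratio of 1, 1 passed 2-fold and the median log2 ratio was 0.42, beside 0.03 for all genes. In the naive gate 37 of 5739 genes (0.645%) were called higher and 58 (1.01%) lower, and all genes had a median of 0.05. There 19 of 20 interferon-stimulated genes were above 1 and the median was 0.40, with Ly6e at 0.906 as the exception. B cell markers in this gate summed to 0.368 UMIs per 10000 with anti-OX40/CpG and 4.07 in PDOX, and neutrophil markers to 0.159 and 2.77. No median without droplets of such markers is given here. Isg15, a ubiquitin-like protein, had 63 PDOX and 56 anti-OX40/CpG UMIs and a ratio of 2.11 (1.45 to 3.09). Ifit1, which binds viral RNA, had 30 and 27 UMIs and a ratio of 2.09 (1.20 to 3.65). Gbp2, a guanylate-binding protein, was at 1.48 (1.1 to 2.0). The summed level of the list in this gate was 44.3, 72.1, 43.2 and 48.6 UMIs per 10000 in the untreated, anti-PD-L1-only, anti-OX40/CpG-only and PDOX libraries, so PDOX lay well below anti-PD-L1 alone. The ratio of Isg15 in all T cells, 2.87 (2.38 to 3.49), depended on few cells, of which 1 held 79 of 395 UMIs, and it was 1.25 when every cell counted equally.

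**Figure D5:**
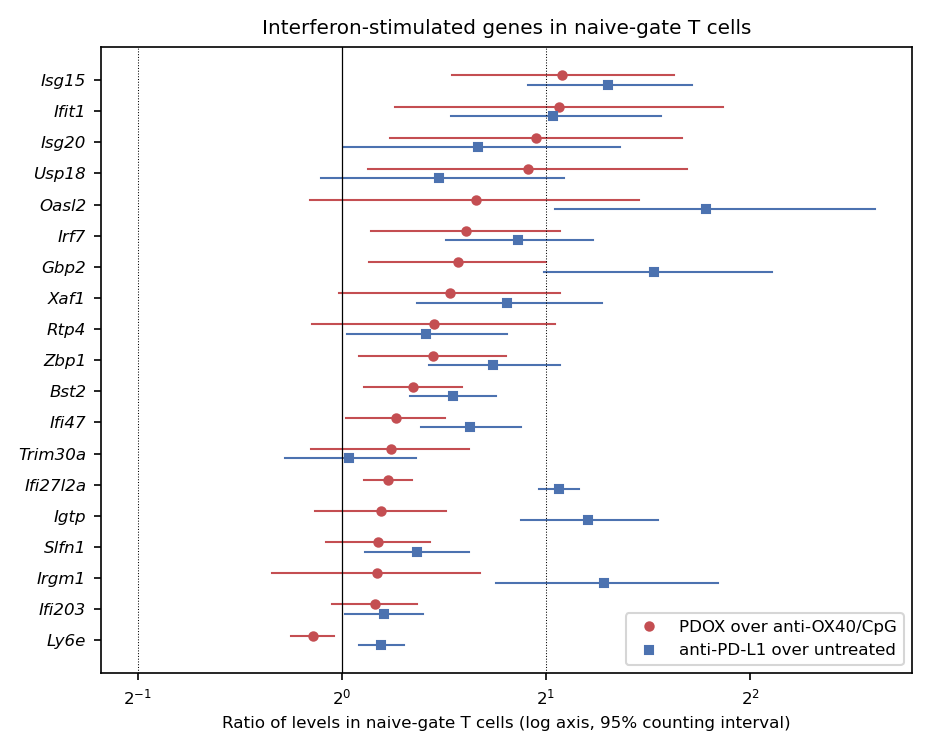
Ratio (log scale, exact 95% intervals) of 19 of the interferon-stimulated genes within the naive gate, for PDOX over anti-OX40/CpG and for anti-PD-L1 over untreated. In the first comparison 18 of the 19 genes plotted lie above 1 and in the second 19 of 19.

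Promoters are shown for the list members that passed 2-fold in CD8 T cells, as a description only. GAAANNGAAA, the core of the interferon-stimulated response element, was searched on both strands in the 250 bases before each start site of the RefSeq annotation (GRCm38.p6). It was present in 12 of the 18 list members that had a promoter entry (66.7%) and in 936 of all 27025 genes with an entry (3.46%). The list was made of genes known to respond to interferon, so a high share was set beforehand. Nothing about these libraries was read from it. The MHC class I presentation list held it in 3 of 13, the cytotoxic granule list in 4 of 14 and the Ly6 and Ifitm list in 1 of 6. A match is a description of letters and not a measured site. In the naive gate, list members with an entry and no match had ratios of 1.13 to 1.93. Those with a match had ratios of 1.12 to 2.11, and whether the motif goes with the ratio was not tested. Capitals mark the matches, which overlap in Isg15, and each sequence is written 5′ to 3′ on the strand of the gene.
Isg15, chr4:156200851-156200920, minus strand, 102 to 33 bases before the start, 3 matches: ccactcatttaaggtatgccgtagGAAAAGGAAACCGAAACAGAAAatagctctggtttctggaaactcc
Ifit1, chr19:34640764-34640833, plus strand, 125 to 56 bases before the start, 2 matches: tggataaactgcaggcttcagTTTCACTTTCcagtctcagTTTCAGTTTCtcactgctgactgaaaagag
Ifit3, chr19:34583360-34583429, plus strand, 169 to 100 bases before the start, 2 matches: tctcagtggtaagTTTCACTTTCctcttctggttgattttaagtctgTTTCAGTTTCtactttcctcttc
Gbp2, chr3:142620574-142620643, plus strand, 89 to 20 bases before the start, 1 match: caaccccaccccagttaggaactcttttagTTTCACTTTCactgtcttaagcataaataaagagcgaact
In CD8 T cells 16 of 18 tested list members were above 1, with a median log2 ratio of 0.34, and 4 passed 2-fold, namely Isg15 at 2.24, Ifit1 at 2.70, Ifit3 at 2.17 and Gbp2 at 2.04. In CD4 T cells 11 of 16 were above 1 and 1 passed 2-fold, with a median of 0.11 beside 0.06 for all genes there, and Gbp2 stood at 0.740 with anti-OX40/CpG and 0.742 in PDOX. Within the CD4 effector gate 5 of 10 were above 1 and the summed level was 59.9 and 55.7 UMIs per 10000.

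Il2, the T cell growth factor gene, was higher in PDOX by its ratio but was not read as T cell expression. It stood at 0.812, 0.387, 0.353 and 0.897 UMIs per 10000 in the untreated, anti-PD-L1-only, anti-OX40/CpG-only and PDOX libraries, a ratio of 2.54 (1.98 to 3.29). A UMI was found in 184 of 1340 PDOX T cells (13.7%) and in 61 of 593 of the naive gate (10.3%). It was also found in 6 of 35 PDOX B cells without Cd3 (17.1%, 6.56 to 33.6), which should lack it, at a median of 1154 UMIs against 1604 in the T cells. In the anti-OX40/CpG library it was found in 85 of 1481 T cells (5.74%) and 0 of 7 B cells. The PDOX share of T cells lay within the wide interval of the B cells. The source of these UMIs was not tested.

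Among the other lists the S100, annexin and galectin genes, of which some define the effector gate, were above 1 in 11 of 11 with a median log2 ratio of 0.89 and 1 past 2-fold. Lgals3, which is not among the gate genes and encodes galectin-3, was 2.61-fold (2.35 to 2.89) higher. Adhesion genes were above 1 in 11 of 11 with a median of 0.32, with none past 2-fold, and MHC class I presentation genes in 13 of 15 with a median of 0.26. Medians were 0.17 for glycolysis and 0.15 for T cell receptor signalling genes. Naive transcription factors had a median of -0.28 and Tcf7 a ratio of 0.794. Cell cycle genes had a median of 0.38 in all T cells that was -0.15 without the droplets with a UMI of other lineages, so no direction was read from it. In CD8 T cells 6 of 10 passed 2-fold upward with a median of 1.03, and in CD4 T cells none of 4 did, with a median of -0.20. Among NK-type receptors 6 of 11 were above 1. Of these, 1 passed 2-fold upward, Klrg1 at 2.02 (1.60 to 2.56), while Klra7, Klra9 and Klrb1c passed it downward. In CD8 T cells 7 of 7 tested were above 1, 2 passed 2-fold upward and 0 downward.

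The genes with the highest and lowest ratios often came from single droplets. In all T cells 1 cell held 50% or more of the PDOX UMIs of 15 of the 160 higher genes, and in CD8 T cells of 19 of 85. Upk1b, an uroplakin of urothelium, counted 119 and 1 UMIs. Ngp, a neutrophil granule gene, counted 118 and 0, with 113 in 1 cell. Mcpt8, a basophil protease, counted 88 and 0, with 78 in 1 cell. In CD8 T cells Gsto1 counted 2575 and 51, with 2516 in 1 cell, and Psca, an epithelial surface antigen, 362 and 2, with 358 in 1 cell. On the lower side Crct1, a gene of cornified epithelium, counted 1 and 510, with 498 in 1 cell.

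The lowest gene present in most cells was a pseudogene. Gm10076 stood at 5.34, 7.33, 39.0 and 1.29 UMIs per 10000 in the untreated, anti-PD-L1-only, anti-OX40/CpG-only and PDOX libraries, a ratio of 0.0330 (0.0293 to 0.0370), and was found in 1405 T cells with anti-OX40/CpG and 260 in PDOX. It was as low in CD8 and CD4 T cells, at 0.0322 and 0.0358, and B cells without Cd3 held it in 6 of 7 and 8 of 35 droplets, so the difference was present in every cell class examined. Of 42 tested genes that RefSeq names pseudogenes 11 were lower and 5 higher, with a median log2 ratio of -0.22 against 0.03 for the other genes. Their UMIs cannot be told from those of near-identical genes, and the PDOX library had the lower share of ribosomal, mitochondrial and hemoglobin UMIs given above. Mfsd11, a membrane transporter gene, counted 29 and 505 UMIs, a ratio of 0.0635.

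The same antibody was added in a second pair, anti-PD-L1 against untreated, which shares no library with the first. Across 6920 genes with 50 UMIs in each pair, the log2 ratios had a Pearson r of 0.150 and a Spearman rho of 0.153, given as a description since genes are not replicates and since each pair is 1 mouse against 1 mouse. In CD8 T cells they were 0.341 and 0.213 over 4682 genes. There 24 genes were 2-fold higher in both pairs, of 50 higher in the first pair and 64 in the second. Among the 24 were Ly6a, Isg15, Ifit1, Ifit3, Gbp2, Gzma, Gzmb, Cx3cr1 and Lgals3, and also Gsto1, Asprv1, Prss27, BC100530 and Nccrp1, whose UMIs lay mostly in single PDOX droplets, and 8 were past 2-fold in opposite directions. Cxcr3 was not among them, with an anti-PD-L1 over untreated ratio of 1.38 (0.844 to 2.33) in CD8 T cells and 1.03 (0.735 to 1.47) in all T cells, beside 3.09 (2.38 to 4.04) and 2.40 (2.05 to 2.81) for PDOX over anti-OX40/CpG. Zeb2 had 1.04 (0.769 to 1.42) beside 2.32 (1.89 to 2.86) in all T cells. In the naive gate r was -0.03 over 5592 genes. The untreated T cells held 38.3 UMIs per 10000 of the monocyte markers, above the other 3 libraries. The difference between the 2 pairs was not tested.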

How the data were processed

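Blood T cells of 4 mice were profiled on the 10x Chromium 3′ v2 platform. The authors deposited raw counts, whole UMIs per gene and cell, made with Cell Ranger, and the submitters' processing notes name the build mm10 and Seurat 2. Cell calling was not given in the sources used here. From these counts, 130 of 27998 genes (13 mitochondrial, 109 ribosomal, 8 hemoglobin) were left out, and cells were gated and UMIs summed with Python 3.11.15, numpy 2.4.6, scipy 1.17.1 and pandas 2.3.3. Counted UMIs in T cells were 2576218 (OX40) and 2329843 (PDOX). Levels have exact Poisson, ratios exact conditional binomial and shares exact Clopper-Pearson 95% intervals. No doublet caller was run, and doublets were limited by the 2900-gene maximum and the class with both Cd4 and Cd8. Named were the 10 highest and lowest ratios per population (5 in the gates), the members of 24 gene lists and genes of the study's single-cell results. Members and lists were chosen with earlier results of these data known. Alternatives changed the denominator, size factors (edgeR 4.0.16, DESeq2 1.42.0 in R 4.3.3, for scaling only), weighting, filters, depth and gates. The ratio script was tested on simulated data. Promoter windows are RefSeq's, GRCm38.p6. Genes of the naive set and of the interferon list that are not named were counted and are not reported here.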

Additional observations from a re-analysis of the deposited data

Results flagged for a closer look

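Il2 and Ly6d went in opposite directions in the pair with and the pair without anti-OX40/CpG. Il2 had a ratio of 2.54 for PDOX over anti-OX40/CpG and 0.477 for anti-PD-L1 over untreated. The interval of its share in PDOX B cells held the share of the PDOX T cells. Ly6d, a gene of B cells and epithelium, had 4.64 and 0.369. With 1 library a group neither difference was tested.

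The droplets without a Cd3 UMI were not used in the comparisons, and 3 marker lists stood above the untreated library there. Platelet markers summed to 29.4 UMIs per 10000 in PDOX. Basophil markers summed to 7.95 in PDOX. NKT cell markers, of which Klrb1c and Il2rb are also expressed by NK cells, summed to 8.09 with anti-OX40/CpG.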

How the results depend on the processing

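Counts of genes past 2-fold moved most. For all T cells the count of higher genes (160) was 263 with all UMIs as denominator, 1631 with no filter on low counts, 41 at 200 or more UMIs, 95 with at least 2 Cd3 UMIs, 79 thinned to 750 UMIs and 100 in a strict T cell gate, and the count of lower genes (117) was 1296 unfiltered, 35 at 200 UMIs and 65 thinned. For CD8 T cells higher genes (85) were 170 with all UMIs, 1798 unfiltered, 20 at 200 UMIs and 28 thinned, and lower genes (102) were 57, 1418, 31 and 55. For CD4 T cells higher genes (52) were 109, 1316, 11 and 21, and lower genes (44) 1556 unfiltered, 9 at 200 UMIs and 14 thinned. Within the CD8 effector gate higher genes (57) were 1355 unfiltered, 12 thinned, 37 in the strict gate and 33 without the top cell of each gene, and lower genes (44) 2061 unfiltered and 15 thinned. Within the CD4 effector gate higher genes (25) were 680 unfiltered and 10 thinned, and lower genes (27) 2806 and 6. Thinned counts include fewer genes with enough UMIs. The effector-gate share of anti-OX40/CpG T cells (26.8%) was 24.4% without other-lineage cells, 23.8% without the 5% of cells with most UMIs and 24.3% in the strict gate. Thinned, CD8 cells were 41.9% of anti-OX40/CpG T cells, and CD4 cells 11.1% of anti-OX40/CpG and 14.4% of PDOX T cells. The medians of T cell receptor signalling and glycolysis genes were 0.35 and 0.37 with all UMIs as denominator. Krt13 and Prss22 turned to ratios of 0.330 and 0.650 with at least 2 Cd3 UMIs, where few cells hold them. Of the checks of main values, each 1 result under 1 setting, 466 stayed within their limits and 42 moved. The other checks were of single genes, the Gzma and TOX sets and the interferon genes in the naive gate. Of these, 3018 stayed, 470 moved and 2 reversed. For single genes in all T cells, ratios of Cxcr3 ranged from 2.32 to 2.75, of Zeb2 from 2.09 to 3.34, of Ly6a from 2.23 to 3.40 and of Tox from 0.54 to 0.65. The strict gate, the leaving out of the top cell, the filter on cells and the checks of the Gzma and TOX sets and of the interferon genes in the naive gate were chosen after seeing the data.

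No paired analysis was possible because each group is 1 library with no replicate. For the same reason no replicate was left out, and the spread between mice is unknown. At these depths, 1 UMI per 10000 is less than 1 UMI in most cells, so low levels rest on few cells.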
